A study of Mus musculus with 2 samples.

Results

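The genes described here were 38 cell cycle genes, chosen by symbol from the 32285 genes of the deposited count tables. They comprised 17 replication genes, switched on around the start of S phase (*Mcm2* to *Mcm7*, *Pcna*, *Tyms*, *Rrm1*, *Rrm2*, *Gins2*, *Uhrf1*, *Slbp*, *Dut*, *Fen1*, *Hells* and *Cdc6*), and 18 mitotic genes (*Mki67*, *Top2a*, *Cdk1*, *Ccnb1*, *Ccnb2*, *Birc5*, *Ube2c*, *Cenpa*, *Cenpe*, *Cenpf*, *Bub1*, *Aurka*, *Aurkb*, *Tpx2*, *Nusap1*, *Kif11*, *Kif20b* and *Kif23*). The remaining 3, *Cdc20*, *Hmgb2* and *Tubb4b*, belonged to neither list and were treated separately. Spatial RNA counts came from Visium slides, on which each spot captures the RNA of a small area that can hold several cells of different types. Of 2 lung sections on 1 slide, 1 was a control lung of a mouse without treatment and 1 a metastatic lung of a tumour-bearing mouse (4T1 m.f.p.). In this model 4T1 mouse breast cancer cells are placed in the mammary fat pad of a syngeneic Balb/c female aged 6 to 8 weeks. Lungs are taken after 21 to 23 days. The age given for the control mouse is also 6 to 8 weeks. The study's spatial analysis described a metastatic lung alone. It asked whether alveolar type 2 (AT2) cells, the surfactant-making cells of the alveolus, become enriched beside metastases by proliferation or by migration. The study followed this up with BrdU and Ki67 staining of AT2 cells.

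Cell division runs through an ordered program of transcription. Before and during S phase, E2F factors drive the genes that copy DNA: the MCM helicase, the sliding clamp PCNA and the enzymes that supply nucleotides. Later, in G2 and mitosis, B-MYB and FOXM1 act with the MuvB complex on genes for cyclin B, the mitotic kinases, centromere proteins and spindle motors, many of which carry a cell cycle genes homology region (CHR) and CCAAT boxes in their promoters. In a tissue that hardly divides, such as adult lung, RNA of the S phase genes is also present outside S phase and several of their products serve DNA repair, whereas most mitotic RNAs are restricted to dividing cells.

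The sections held 1110 spots with 14657881 counts (metastatic) and 1888 spots with 20329126 counts (control). Of the spots in the metastatic section, 154 formed the core, 106 the margin (within 200 µm of the core), 197 an intermediate zone (up to 500 µm) and 653 the far lung, with 2480497, 1413169, 2465492 and 8298723 counts. The core was 1 of 5 clusters of spots, computed with all genes of the cell cycle lists left out, and was chosen for its high tumour and low AT2, AT1 and endothelial marker score. It consisted of a larger metastasis of 123 spots, a smaller metastasis of 28 spots with a lower median depth (5619 counts per spot against 14940 for the whole core), and 3 other spots. All 10 AT2, 8 AT1, 10 endothelial and 6 club cell markers were lower in the core than in the far lung. The tumour list itself separated the regions weakly. Its summed level was 14.9 counts per 10000 (CP10k) in the core and 9.57 CP10k in the far lung. In the core *Spp1*, *Cd44*, *Krt8*, *Krt18*, *Plaur* and *Hmga2* were higher and 6 of its 12 measured genes lower. The list was also at 12.5 CP10k in control lung and 11.7 CP10k in the smaller metastasis, so it does not mark tumour cells alone. The genes that led the core by ratio were *Mmp3*, *Ccl7*, *AA467197*, *Cxcl10*, *Ccl2* and *Pclaf*, the last of these a PCNA-associated factor outside all the cell cycle lists. The region is therefore called core by its rule and not by a cell type. It is broader than the metastatic core of the study, which held fewer spots and was checked against the stained section. In its outermost ring of 54 spots the AT2 list was at 123 CP10k, against 15.5 CP10k in the ring over 350 µm inside. With 1 section per condition there was no replicate, so no p-value is given. Intervals are exact 95% Poisson or binomial intervals and cover counting error only. Fewer dividing cells and less RNA per dividing cell cannot be told apart in spots.

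The promoters of the members differed by list in the motifs they held. RefSeq windows on build GRCm38.p6, from 250 bases before to 50 bases after the start, were given for 34 of the 38 members (not for *Tpx2*, *Gins2*, *Aurkb* and *Mcm4*). An E2F string (TTTCCCGC, TTTCGCGC, TTTGGCGC or TTTGCCGC, either strand) was found in 7 of 15 replication genes (46.7%) and in 1 of 16 mitotic genes (6.25%), against 2.605% of all 27025 genes with a window. A CHR string (TTTGAA or TTTAAA) was found in 14 of 16 mitotic genes (87.5%) and 5 of 15 replication genes (33.3%), against 30.6% of all genes. CCAAT was found in 13 of 16 mitotic and 10 of 15 replication genes, against 41.1% of all genes. A CHR string together with CCAAT was found in 12 mitotic genes (75.0%), 4 replication genes (26.7%) and 13.4% of all genes. The wider lists described later went the same way, with E2F strings in 34.2% of 38 other replication genes and 11.8% of 51 other mitotic genes, and CHR strings in 28.9% and 66.7%. The median GC content of the windows was 59.3% for replication, 61.3% for mitotic and 52.75% for all genes. A match is a description of these letters and not of a bound site. The windows of 7 members are given 5′ to 3′ on the strand of the gene, with E2F, CHR and CCAAT strings (or their reverse complements) in capitals. *Mcm6* (chr1:128359656-128359955, minus strand) and *Cdc6* (chr11:98907901-98908200, plus strand) hold E2F strings and no CHR string. *Rrm2* (chr12:24708004-24708303, plus strand), the replication gene with the highest ratio of core over far lung, holds no such E2F string but a CHR string and CCAAT. *Cdk1* (chr10:69352863-69353162, minus strand) holds all 3 kinds, and *Top2a* (chr11:99024140-99024439, minus strand) and *Ccnb1* (chr13:100786437-100786736, minus strand) hold CHR strings and CCAAT. *Tubb4b* (chr2:25224653-25224952, minus strand) holds the same letters as the mitotic genes, although its level hardly differed between the regions.
Mcm6: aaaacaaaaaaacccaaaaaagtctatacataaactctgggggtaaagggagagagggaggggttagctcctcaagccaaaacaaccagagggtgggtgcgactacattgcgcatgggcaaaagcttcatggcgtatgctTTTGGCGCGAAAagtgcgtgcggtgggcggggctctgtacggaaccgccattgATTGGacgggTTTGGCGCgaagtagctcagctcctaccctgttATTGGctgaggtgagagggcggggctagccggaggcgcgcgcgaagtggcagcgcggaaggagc
Cdc6: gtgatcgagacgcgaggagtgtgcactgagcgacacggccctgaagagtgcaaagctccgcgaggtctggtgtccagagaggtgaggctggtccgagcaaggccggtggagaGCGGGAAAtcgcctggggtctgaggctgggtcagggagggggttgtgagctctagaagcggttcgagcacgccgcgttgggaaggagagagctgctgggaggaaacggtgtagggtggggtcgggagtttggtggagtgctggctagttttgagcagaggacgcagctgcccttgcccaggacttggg
Rrm2: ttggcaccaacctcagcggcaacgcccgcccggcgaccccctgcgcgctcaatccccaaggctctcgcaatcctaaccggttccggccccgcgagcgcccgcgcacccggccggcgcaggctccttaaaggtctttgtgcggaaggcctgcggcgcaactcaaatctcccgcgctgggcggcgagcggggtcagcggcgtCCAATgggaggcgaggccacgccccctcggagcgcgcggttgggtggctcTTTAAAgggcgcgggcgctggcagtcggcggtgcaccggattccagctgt
Cdk1: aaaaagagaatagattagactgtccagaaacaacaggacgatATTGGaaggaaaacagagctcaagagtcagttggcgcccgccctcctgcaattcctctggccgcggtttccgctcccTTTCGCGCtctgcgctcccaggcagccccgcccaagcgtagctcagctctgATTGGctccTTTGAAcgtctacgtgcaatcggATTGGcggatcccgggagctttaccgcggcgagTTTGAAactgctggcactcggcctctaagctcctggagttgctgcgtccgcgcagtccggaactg
Top2a: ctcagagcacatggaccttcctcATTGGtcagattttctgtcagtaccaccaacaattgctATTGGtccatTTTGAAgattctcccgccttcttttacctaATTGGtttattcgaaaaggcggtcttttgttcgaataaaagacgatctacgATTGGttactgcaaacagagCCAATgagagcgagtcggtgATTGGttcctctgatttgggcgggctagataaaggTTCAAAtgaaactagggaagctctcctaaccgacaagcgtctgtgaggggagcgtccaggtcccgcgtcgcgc
Ccnb1: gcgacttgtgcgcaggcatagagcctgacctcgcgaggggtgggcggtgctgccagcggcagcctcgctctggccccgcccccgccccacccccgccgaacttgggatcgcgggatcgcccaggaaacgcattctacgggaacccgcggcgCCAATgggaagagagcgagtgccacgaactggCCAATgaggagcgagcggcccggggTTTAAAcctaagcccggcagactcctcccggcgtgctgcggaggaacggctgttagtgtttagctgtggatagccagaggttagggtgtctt
Tubb4b: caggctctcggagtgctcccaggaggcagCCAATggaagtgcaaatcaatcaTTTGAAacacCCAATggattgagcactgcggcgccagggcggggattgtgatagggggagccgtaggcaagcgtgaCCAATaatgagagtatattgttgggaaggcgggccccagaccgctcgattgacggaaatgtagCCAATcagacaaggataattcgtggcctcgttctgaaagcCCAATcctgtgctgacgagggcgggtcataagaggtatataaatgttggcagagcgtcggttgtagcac

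In the metastasis core both phases were far above the surrounding lung, and the mitotic members more so than the replication members. The summed level of the 17 replication genes was 14.1 CP10k in the core (interval 13.7 to 14.6), 6.45 CP10k in the margin, 3.03 CP10k in the intermediate zone, 2.50 CP10k in the far lung and 3.32 CP10k in control lung. The summed level of the 18 mitotic genes was 11.1 CP10k in the core, 3.35 CP10k in the margin, 1.33 CP10k in the intermediate zone, 0.924 CP10k in the far lung and 1.33 CP10k in control lung. The core thus exceeded the far lung 5.66-fold (5.36 to 5.98) for replication and 12.0-fold (11.0 to 13.0) for mitotic genes. Both ratios depended on the library size, since the club cell gene *Scgb1a1* took 0.339% of core counts and 23.3% of far lung counts. With *Scgb1a1*, haemoglobin, mitochondrial, surfactant and immunoglobulin genes left out of the library size, they were 3.92 and 8.27. The mitotic ratio depended on the genes chosen, and was 4.92 with 64 other mitotic genes and 3.602 with *Cdc20*, *Hmgb2* and *Tubb4b* added to the members. With 16.9% of the counts of its section, the core held 48.4% of the replication and 63.6% of the mitotic counts.

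**Figure D1:**
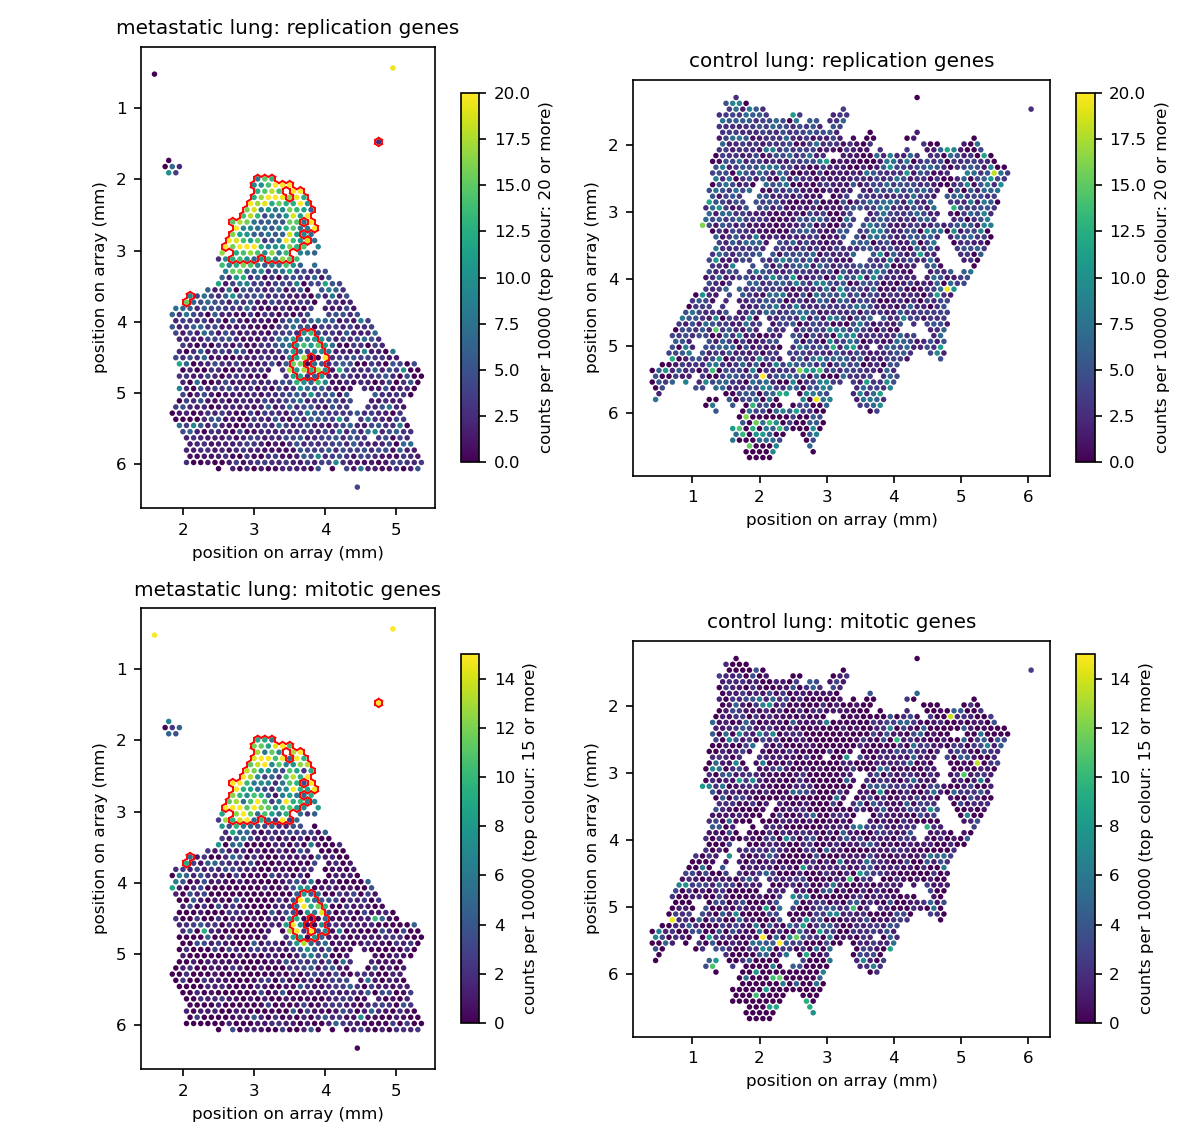
Each point is a Visium spot at its array position in millimetres, coloured by the summed counts per 10000 of the 17 replication genes (top) or 18 mitotic genes (bottom), in the metastatic section (left, core outlined in red) and the control section (right). Both lists were highest within the outlines, where the median spot reached 12.5 CP10k (replication) and 9.54 CP10k (mitotic), against 2.25 and 0.691 CP10k in the far lung.

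The balance between the phases shifted from the lung towards the core. For each mitotic count there were 1.28 replication counts in the core (1.22 to 1.34), 1.92 in the margin (1.72 to 2.15), 2.27 in the intermediate zone (1.99 to 2.60), 2.70 in the far lung (2.48 to 2.94) and 2.50 in control lung (2.39 to 2.61). The replication to mitotic ratio of the core was 0.473 times that of the far lung (0.429 to 0.522), and that of the margin 0.713 times (0.619 to 0.821). The larger and the smaller metastasis had nearly the same balance, 1.279 and 1.304 replication counts per mitotic count, with an interval of 0.781 to 1.23 for the ratio between them. This was so although the smaller metastasis held lower levels of both lists, 11.0 CP10k replication and 8.46 CP10k mitotic, against 14.4 and 11.2 CP10k in the larger.

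The shift depended on which genes stood for mitosis and, in the margin, on how the core was drawn. With 53 other replication genes and 64 other mitotic genes in place of the members, the core was at 0.777 times the balance of the far lung (0.732 to 0.825), and the margin at 0.954 times with an interval that covers 1 (0.872 to 1.04). With *Cdc20*, *Hmgb2* and *Tubb4b* added to the mitotic members, the direction turned, to 1.57 in the core and 1.60 in the margin. *Tubb4b* carried this change, since its 3.16 CP10k in the far lung alone exceeded the 0.924 CP10k of the 18 mitotic genes together. With a narrower core of 55 spots, taken by marker score, the members' balance was 1.32 in the core and 1.29 in the margin. It was 2.54 in the far lung, so the step between core and margin was absent under that rule.

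**Figure D2:**
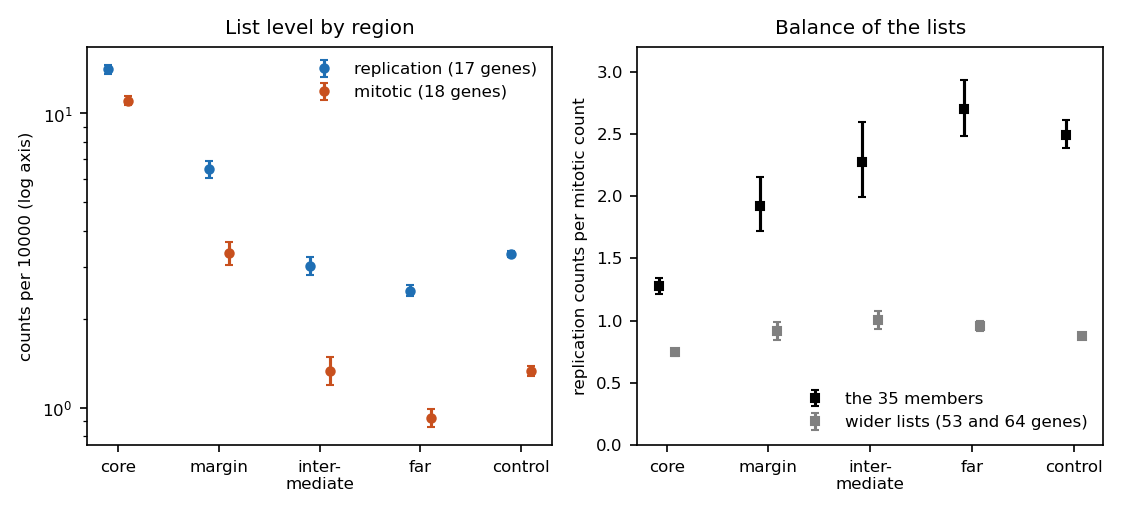
Left, summed level in counts per 10000 (log axis) of the replication and mitotic lists in 5 regions, and right, replication counts per mitotic count for the members (black) and for the wider lists (grey), with exact 95% intervals of counting error as bars. Both lists fell from core to far lung, and the members' balance rose from 1.28 to 2.70, whereas the wider lists moved from 0.744 to 0.957.

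Every one of the 35 genes of the lists was higher in the core than in the far lung by over 2-fold, a size that 24.1% of the 14157 genes measured in both reached. The median log2 ratio was 2.59 for replication and 3.57 for mitotic genes, against 0.28 for all genes. The single-gene ratios of the lists overlapped. Replication genes ranged from 3.90-fold (*Mcm3*) to 14.5-fold (*Rrm2*) and mitotic genes from 7.33-fold (*Cenpa*) to 23.9-fold (*Aurkb*), so that 6 of 17 replication genes lay above the lowest mitotic gene and 3 of 18 mitotic genes above the highest replication gene.

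Among the replication genes, the helicase subunits did not move as 1 block. *Mcm6* was at 1.22 CP10k in the core, 0.354 in the margin, 0.0928 in the far lung and 0.162 in control lung, a core over far ratio of 13.1 (10.2 to 17.1). *Mcm5* followed at 7.98-fold (6.20 to 10.4) and *Mcm2* at 5.02-fold (3.76 to 6.72). *Mcm7*, *Mcm4* and *Mcm3* were at 4.50-fold, 4.20-fold and 3.90-fold, and the upper bounds of their intervals (5.47, 5.32 and 4.99) lay below the lower bound of *Mcm6*. The factors that load and complete the helicase, *Cdc6* and *Gins2*, rested on few counts (36 and 68 in the core) and were 4.82-fold (2.81 to 8.37) and 8.75-fold (5.49 to 14.3) higher.

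Of the genes for nucleotide supply, *Rrm2*, the regulated subunit of ribonucleotide reductase, stood apart from its partner *Rrm1*. *Rrm2* was at 1.12 CP10k in the core, 0.410 in the margin, 0.0771 in the far lung and 0.102 in control lung. *Rrm1* was at 0.972, 0.559, 0.230 and 0.302 CP10k. Their core over far ratios were 14.5 (11.0 to 19.4) and 4.22 (3.48 to 5.13), and the intervals do not overlap. *Tyms*, which makes thymidylate, was 6.15-fold and *Dut*, which removes dUTP, 6.02-fold higher in the core.

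The clamp *Pcna* was the most counted replication member and among the flatter ones. It was at 2.40 CP10k in the core, 0.899 in the margin, 0.568 in the far lung and 0.644 in control lung, a ratio of 4.23 (3.75 to 4.79) for the core and 1.58 (1.29 to 1.93) for the margin. *Fen1*, the nuclease that trims Okazaki fragments, was 6.23-fold and *Slbp*, which binds histone mRNA, 4.01-fold higher in the core. *Uhrf1* and *Hells*, which maintain DNA methylation behind the fork, were 13.0-fold (9.17 to 19.0) and 10.0-fold (5.49 to 19.4) higher. The 7 replication genes with an E2F string in their window spanned 3.90-fold to 13.1-fold with a median of 7.98, and the 8 others with a window 4.01-fold to 14.5-fold with a median of 5.52, so that the ranges overlapped.

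Among the mitotic genes, *Aurkb*, *Top2a* and *Cdk1* had the highest ratios. *Top2a*, which untangles sister chromatids, was at 1.44 CP10k in the core, 0.460 in the margin, 0.0627 in the far lung and 0.127 in control lung, a ratio of 23.0 (17.1 to 31.3). *Aurkb*, the kinase of the chromosomal passenger complex, was at 0.403, 0.0849, 0.0169 and 0.0384 CP10k, a ratio of 23.9 (13.6 to 45.3) that rested on 14 counts in the far lung. *Cdk1*, the kinase that drives entry into mitosis, was at 1.17, 0.326, 0.0699 and 0.104 CP10k, a ratio of 16.7 (12.6 to 22.6). Its partners *Ccnb1* and *Ccnb2* were 13.2-fold and 11.9-fold higher in the core. *Mki67*, the usual histological marker of cycling cells, was at 1.10, 0.283, 0.0783 and 0.171 CP10k, a ratio of 14 (10.6 to 18.6). *Birc5*, another passenger protein, was 13.5-fold higher.

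The spindle and centromere genes spanned 7.33-fold to 14.3-fold and so overlapped with those above. The motors *Kif11*, *Kif23* and *Kif20b* were 14.3-fold, 8.28-fold and 8.18-fold higher in the core, and the spindle proteins *Tpx2* and *Nusap1* 11.0-fold and 11.7-fold. *Cenpe* and *Cenpf* were 13.2-fold and 11.3-fold higher, the checkpoint kinase *Bub1* 12.4-fold and *Aurka* 8.31-fold. *Ube2c*, the ubiquitin-conjugating enzyme of the anaphase-promoting complex, was 9.05-fold higher (7.38 to 11.2), at 1.41 CP10k in the core and 0.155 in the far lung. *Cenpa*, the centromeric histone, was the most counted mitotic member in the far lung and in control lung and had the lowest ratio, 7.33 (5.94 to 9.08), with 1.16 CP10k in the core, 0.158 in the far lung and 0.205 in control lung.

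**Figure D3:**
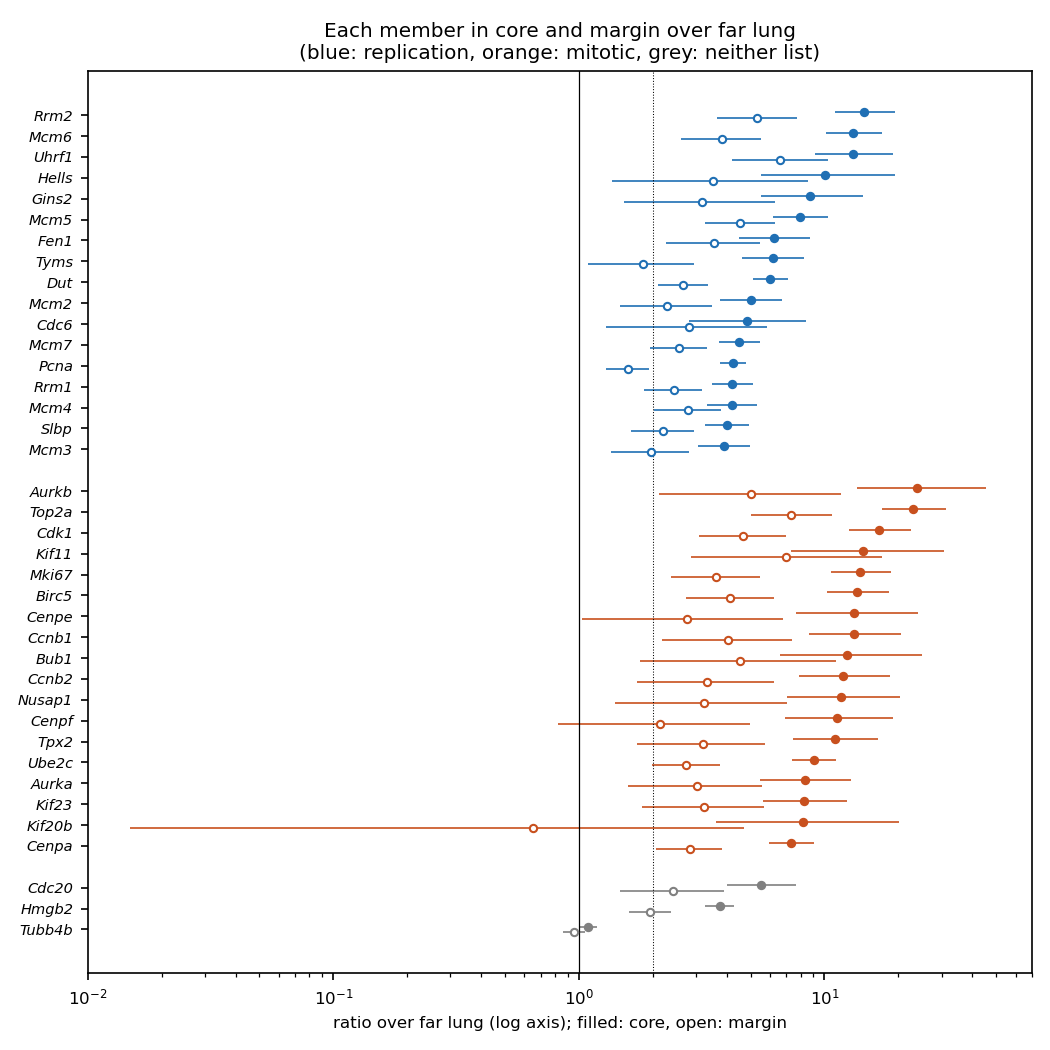
Ratio of each member's counts per 10000 over the far lung (log axis), in the core (filled) and the margin (open), with exact 95% intervals of counting error. All replication (blue) and mitotic (orange) genes lay above the dotted line at 2-fold in the core, and *Tubb4b* (grey) lay near 1 in both regions.

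The 3 members of neither list did not share a pattern. *Cdc20*, the activator of the anaphase-promoting complex, was at 0.419 CP10k in the core, 0.184 in the margin, 0.0759 in the far lung and 0.0846 in control lung, a core over far ratio of 5.52 (4.00 to 7.68). All but 3 of its 104 core counts came from the larger metastasis, and the smaller metastasis held 0, which allows up to 0.172 CP10k there. *Hmgb2*, a chromatin protein abundant in dividing and in myeloid cells, was 3.75-fold higher in the core (3.28 to 4.28), and it was the only member of the 38 whose interval lay above 1 for the far lung over control lung, at 0.504 against 0.352 CP10k, a ratio of 1.43 (1.26 to 1.62). *Tubb4b*, a beta-tubulin also abundant in ciliated cells, was at 3.45 CP10k in the core, 3.01 in the margin, 3.16 in the far lung and 3.80 in control lung. Its core over far ratio was 1.09 (1.01 to 1.18). In spots rich in ciliated cell markers *Tubb4b* was 1.40-fold higher in the far lung and 1.65-fold higher in control lung than in the remaining spots, whereas *Hmgb2* was at 0.343 and 0.402 of the remaining spots. Club cell-rich spots were alike, with *Tubb4b* at 1.41 and 1.64 and *Hmgb2* at 0.322 and 0.367. *Tubb4b* was also higher in smooth muscle-rich spots (1.22 and 1.23), so its rise was not particular to ciliated cell markers.

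By difference in level, the margin of the core used here lay nearer to the far lung than to the core. By ratio it lay no nearer to the far lung, as the fold values below show. From core to margin the mitotic level fell 3.30-fold (2.99 to 3.64) and the replication level 2.19-fold (2.03 to 2.36). Of the difference between far lung and core, the margin had covered 34.0% for replication and 24.0% for mitotic genes. The replication level of the margin was 2.59-fold that of the far lung (2.39 to 2.80) and the mitotic level 3.63-fold (3.23 to 4.07). Over 2-fold higher were 14 of 17 replication and 17 of 18 mitotic genes, against 10.1% of the 13920 genes measured. *Uhrf1* (6.61-fold), *Rrm2* (5.32-fold), *Top2a* (7.34-fold) and *Kif11* (6.94-fold) were highest there. The replication genes under 2-fold were *Pcna* at 1.58, *Tyms* at 1.83 and *Mcm3* at 1.96. *Kif20b* had 1 count in the margin and 9 in the far lung, a ratio of 0.652 with an interval of 0.0149 to 4.71. The margins of the larger and the smaller metastasis differed, with 8.79 and 4.76 CP10k replication and 4.33 and 2.65 CP10k mitotic counts. The club cell list stood at 95.4 CP10k in the former and 2691 CP10k in the latter, and its part in that difference was not tested. With a narrower core of 55 spots taken by score, 54 of them also in the core used here, the margin over far ratio of the mitotic genes was 6.13, and the fall from core to margin was alike for both lists, at 1.78-fold (1.65 to 1.93) for mitotic and 1.82-fold (1.70 to 1.94) for replication genes.

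With the core used here, the profile by distance from the core edge placed the steepest drop at the edge itself. That edge was drawn from the expression of these same spots, so the place of the step is not independent of the core rule. With the core of 55 spots by score, core over margin was 1.82 (replication) and 1.78 (mitotic), and margin over far lung 3.12 and 6.13. From inside outwards, replication was at 12.9, 14.2, 15.8 and 14.1 CP10k in 4 rings of the core, then at 7.80 CP10k in the first ring outside (100 µm), 5.18 at 200 µm, 3.54 at 300 µm, 2.75 at 400 to 500 µm, 2.58 at 600 to 900 µm and 2.39 beyond. Mitotic genes were at 11.3, 10.2, 11.5 and 11.0 CP10k inside and at 4.43, 2.34, 1.65, 1.14, 0.885 and 0.924 CP10k outside. Within the core the mitotic level varied little, whereas the replication level was lowest in the innermost ring, so that the balance was 1.15 there (1.05 to 1.25) and 1.28 to 1.40 in the rings around it. Outside, the balance was 1.76 in the ring that touches the core and 2.91 (2.55 to 3.34) at 600 to 900 µm.

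**Figure D4:**
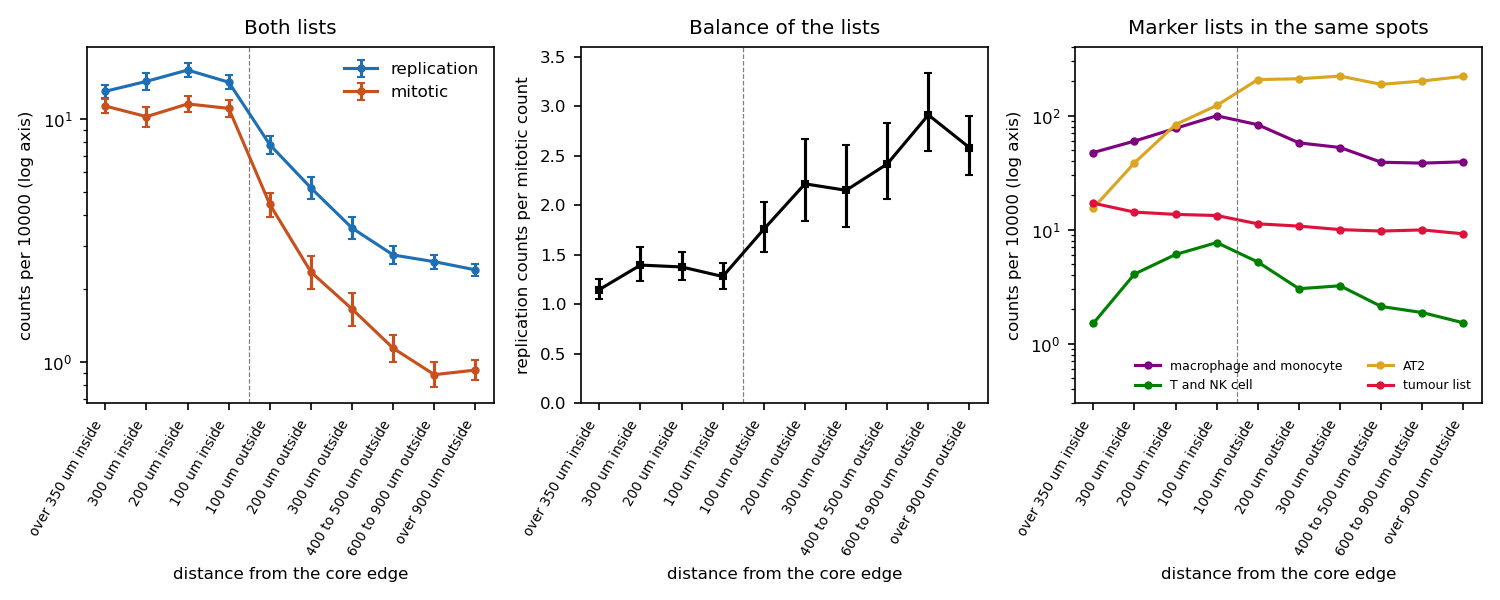
Summed levels by distance from the core edge (dashed line) in counts per 10000 on log axes: replication and mitotic lists (left), replication counts per mitotic count on a linear axis (middle), and marker lists (right), with 95% intervals of counting error in the left and middle panels. Mitotic genes stayed between 10.2 and 11.5 CP10k in the 4 inner rings and fell to 4.43 CP10k in the first outer ring, while the T and NK cell list rose from 1.51 CP10k in the innermost ring to 7.71 CP10k in the outermost ring of the core.

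The marker lists of other cell types moved differently across these rings. In the 4 core rings the T and NK cell list was at 1.51, 4.09, 6.06 and 7.71 CP10k, the macrophage and monocyte list at 47.5, 59.9, 77.4 and 99.7 CP10k and the AT2 list at 15.5, 38.6, 83.5 and 123 CP10k. The innermost ring, with the lowest T and NK cell, macrophage and AT2 levels, had a mitotic level of 11.3 CP10k, as high as that of the outermost ring. Over whole regions, all 11 macrophage, 12 T and NK cell and 8 B cell markers were higher in the core than in the far lung. Their summed levels were close in the margin and the core, at 70.1 and 69.4 CP10k for macrophages. They were 4.09 and 4.54 CP10k for T and NK cells and 1.44 and 1.28 CP10k for B cells. Both cell cycle lists were lower in the margin. The macrophage sum came mostly from *Lyz2*, at 45.05 CP10k in the margin and 40.63 CP10k in the core, and *Apoe*, at 13.37 and 9.397 CP10k. *Csf1r* was at 1.27 and 1.21 CP10k. Every other macrophage marker was lower in the margin, with *C1qa* at 3.23 and 5.13, *C1qb* at 2.84 and 5.17 and *C1qc* at 2.25 and 4.19 CP10k. The macrophage sum therefore does not describe these genes. The lists of cycling blood precursors had lower sums in the core than in the far lung, but their genes did not share 1 pattern. The neutrophil precursor list was at 1.17 CP10k in the far lung and at 0.214 times that level in the core. Its sum in the far lung came mostly from *Camp*, *Ngp* and *Ltf*, which had 5, 1 and 0 counts in the core, whereas *Prtn3* was higher in the core, at 0.226 against 0.0663 CP10k. *Elane*, *Mpo*, *Ctsg*, *Fcnb* and *Ms4a3* had 0 core counts, but 2 to 34 in the far lung. The erythroid precursor list was at 0.520 and 2.07 CP10k, a difference carried by *Alas2* (0.0645 and 1.56 CP10k), while *Tfrc*, the transferrin receptor, was at 0.447 and 0.413 CP10k. *Klf1*, *Rhag*, *Ermap* and *Car1* had 0 core counts and at most 4 in the far lung. The germinal centre list was at 0.984 and 1.20 CP10k, with *S1pr2*, its most counted gene, at 0.464 and 0.463 CP10k. The part of these cells in the core counts was not tested.

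Within the far lung both lists were higher in spots rich in macrophage markers and lower in spots rich in airway markers. The 10% of spots with the highest macrophage and monocyte score (65 spots) had 1.75 CP10k mitotic counts against 0.830 in the remaining far spots, a ratio of 2.11 (1.75 to 2.53), and 3.91 against 2.34 CP10k replication counts, a ratio of 1.67. Alveolar macrophage-rich spots had a mitotic ratio of 1.74 and T and NK cell-rich spots of 1.53. Spots rich in fibroblast, endothelial or germinal centre markers had more replication counts (1.43, 1.33 and 1.42) at a mitotic ratio near 1 (1.07, 0.963 and 1.01). In club cell-rich spots both lists were low, at 0.486 for replication and 0.303 for mitotic genes, and in ciliated cell-rich spots at 0.525 and 0.366. *Scgb1a1*, the main club cell secretory product, took 23.3% of all far lung counts, which lowers the share of every other gene where it is high. The club list itself was at 5879 CP10k in the club cell-rich spots and at 1385 CP10k in the remaining far spots. How much of the low ratios this share of counts accounts for was not tested.

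In the margin and the core, spots were divided into the 50% with the higher marker score and the rest. Macrophage-rich margin spots had 2.24-fold the mitotic level of the rest (1.84 to 2.72) and 1.87-fold the replication level, and T and NK cell-rich margin spots 1.86-fold (1.54 to 2.25) and 1.51-fold. Margin spots with the higher tumour score had 1.66-fold the mitotic level (1.38 to 2.01) and 1.60-fold the replication level. In control lung the 10% of spots with the highest tumour score were also higher, at 1.25 (mitotic) and 1.29 (replication) of the remaining spots. Other lists divided the margin as well. The mitotic ratio was 2.06 for plasma cell, 1.60 for alveolar macrophage and 1.52 for germinal centre markers. For club cell markers it was 0.414, and for ciliated cell markers 0.484. The macrophage list fell from 83.2 CP10k at 100 µm to 57.7 CP10k at 200 µm from the core, and distance was not held fixed in these divisions. In the core the macrophage ratio was 0.949 (0.879 to 1.02) for mitotic and 0.931 for replication genes, and that of the tumour score 1.31 and 1.45. Both lists were higher in macrophage-rich spots of the margin and the far lung, and not in those of the core.

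In control lung the airway spots were low too, at 0.383 (replication) and 0.285 (mitotic) of the remaining spots for club cells. The club list was at 5542 CP10k in these spots and at 658 CP10k in the remaining control spots. The macrophage ratio for mitotic genes was 1.37 in control lung (1.22 to 1.53). The highest mitotic ratios of control lung belonged to germinal centre-rich spots at 1.56 and dendritic cell-rich spots at 1.47. The difference of the macrophage ratio between the sections was not tested.

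**Figure D5:**
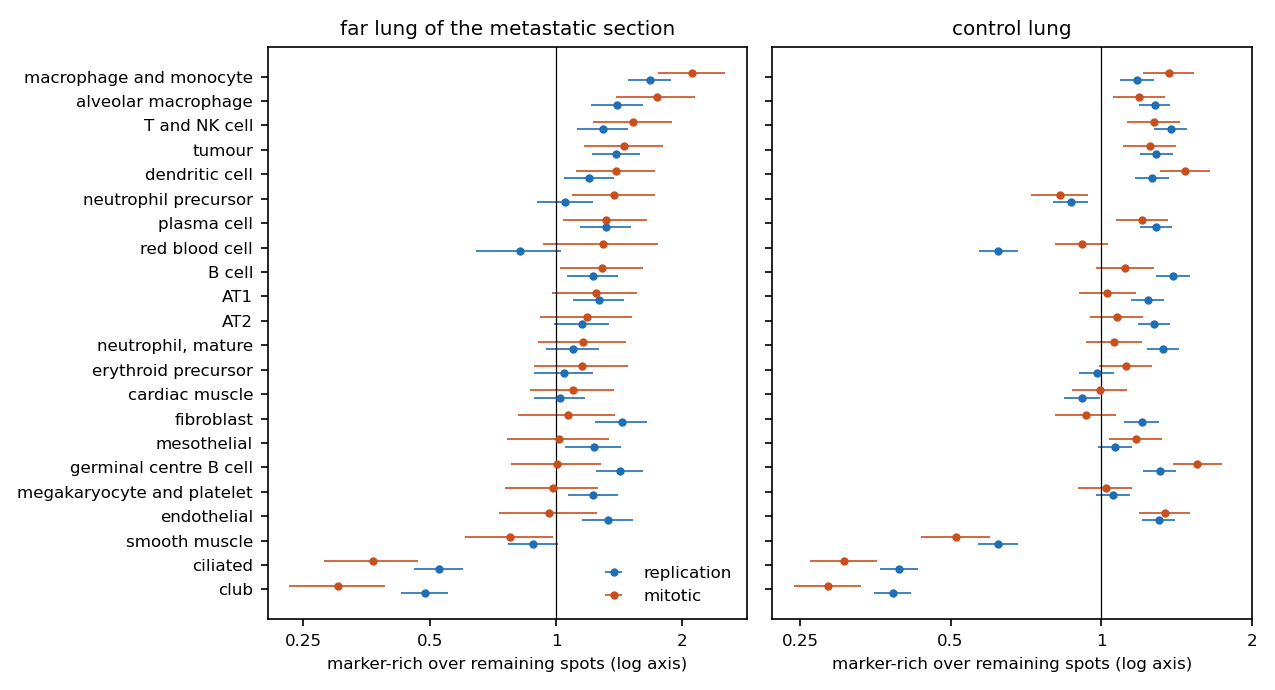
Ratio of the summed replication (blue) and mitotic (orange) counts per 10000 in the 10% of spots richest in each marker list over the remaining spots (log axis), in the far lung and in control lung, with exact 95% intervals of counting error. Macrophage-rich spots were highest for mitotic genes in the far lung (2.11), and club cell-rich spots were lowest in both sections (0.303 and 0.285).

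AT2-rich spots, the 20% of the metastatic section with the highest AT2 score, were read in the same way because the study's question concerned them. This division was added after the levels of the regions were known. Of 222 such spots, 30 lay in the margin and 144 in the far lung. In them the replication genes were at 7.08 CP10k in the margin and 2.83 CP10k in the far lung, and the mitotic genes at 3.51 and 0.998 CP10k. The margin over far ratios were 2.50 (2.14 to 2.93) and 3.52 (2.76 to 4.48). In the other spots the ratios were 2.58 (2.35 to 2.82) and 3.63 (3.18 to 4.15), so the rise towards the metastasis had nearly the same size with and without a high AT2 score. Within the margin, the 50% of spots with the higher AT2 score had 1.28-fold the replication level of the rest (1.12 to 1.46). Their mitotic level was 1.26-fold (1.04 to 1.51). In the far lung the AT2-richest 10% were at 1.15 (0.986 to 1.34) and 1.18 (0.914 to 1.51), with intervals that cover 1. The macrophage list of the AT2-rich spots was 1.62-fold and the T and NK cell list 1.81-fold higher in the margin than in the far lung, while the AT2 list itself was at 0.878. The part of these cell types in the counts was not tested. The study drew its AT2-enriched spots with another score and other regions, and stained AT2 cells directly, so these ratios do not answer its question.

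The far lung of the metastatic section was below control lung for both phases. The replication level was 0.752 times that of control lung (0.715 to 0.790) and the mitotic level 0.695 times (0.640 to 0.753), with a balance 1.08 times that of control lung and an interval that covers 1 (0.984 to 1.19). Lower by over 2-fold were 2 of 17 replication genes, *Uhrf1* (0.469) and *Mcm2* (0.485), and 3 of 18 mitotic genes, *Aurkb* (0.440), *Mki67* (0.458) and *Top2a* (0.492), against 7.02% of the 15717 genes measured. The median log2 ratios were -0.39 and -0.47, and that of all genes was -0.20. The interval lay below 1 for 10 replication and 9 mitotic genes, against 35.2% of all genes, and above 1 for 0 of the 35, against 7.42% of all genes. *Tyms* (1.18), *Kif20b* (2.00), *Kif11* (1.22), *Ccnb1* (1.08) and *Aurka* (1.06) had ratios above 1 with intervals that cover 1. The sections also differed in their make-up. The AT2 list was at 213 CP10k in the far lung and 319 in control lung, the T and NK cell list at 1.73 and 3.06 CP10k, the mature neutrophil list at 26.2 and 2.41 CP10k, the cardiac muscle list at 0.542 and 35.3 CP10k and *Scgb1a1* at 23.3% and 15.2% of counts. Section and condition cannot be told apart.

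Spot by spot, mitotic RNA was found in more core than far spots. With each spot thinned to 5000 counts, 96.5% of 141 core spots had at least 1 mitotic count, against 75.0% of 100 margin spots, 46.2% of 184 intermediate spots, 34.7% of 603 far spots and 44.0% of 1526 control spots. Shallower spots were left out, 13, 6, 13, 50 and 362 of them. Without thinning the shares were 96.8%, 91.5%, 70.6%, 57.6% and 61.3%. The levels of the lists in the same spots were correlated with Pearson's r = 0.471 over 154 core spots, 0.549 over 106 margin spots, 0.153 over 653 far spots and 0.154 over 1888 control spots. The spots of a region share a library, and both lists followed depth in the core (r = 0.455 and 0.391), so these are descriptions only.

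The wider cell cycle genes moved with the members in the core. Over 2-fold higher in the core than in the far lung were 47 of 53 other replication genes and 62 of 64 other mitotic genes, and 0 of either were over 2-fold lower, beside 24.1% of all genes higher. Ratios are named here among genes with at least 50 counts over both regions. In the other replication list the highest were those of *Clspn* (20.6), a checkpoint adaptor, *Tk1* (17.6), thymidine kinase, and *Ccne1* (15.7), cyclin E1. *Clspn* rested on 7 counts in the far lung (interval 9.17 to 54.1). The lowest was *Ubr7* (1.12, interval covering 1). In the other mitotic list *Ckap2* (26.5), *Ndc80* (26.3), *Kif15* (24.5) and *Sgo1* (22.9) were highest, on 11, 8, 6 and 7 counts in the far lung. The lowest were *Stmn1* (2.01), *Cdc25b* (1.69) and *Bub3* (1.55). *Stmn1*, a tubulin-binding protein, was at 0.533 CP10k in the far lung and 1.46 CP10k in control lung.

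Regulators of the cycle did not move together. Of 35, 13 were over 2-fold higher in the core (37.1%) and 3 over 2-fold lower (8.57%), beside 24.1% and 19.3% of all genes. Among those with at least 50 counts the highest was *E2f8* (29.0, interval 12.5 to 82.6), which rested on 6 counts in the far lung. *Mybl2*, which encodes B-MYB (5.89), *E2f3* (5.35) and *Tfdp1* (5.08), the partner of E2F proteins, followed. *Tfdp2*, a relative of *Tfdp1*, was among the lowest at 0.413. *E2f1* was 4.46-fold higher, whereas *E2f2*, *E2f4*, *E2f5* and *E2f6* lay between 1.52 and 1.87. Of the D cyclins, which start the cycle in response to growth signals, *Ccnd1* was at 1.96 (1.77 to 2.17), *Ccnd3* at 0.911 and *Ccnd2* at 0.671. The inhibitors divided. *Cdkn1a*, the p21 gene, was 2.42-fold higher in the core, *Cdkn2d* 1.87-fold and *Cdkn2c* 1.67-fold, while *Cdkn1b* was at 0.512, *Cdkn2b* at 0.171 and *Cdkn1c* at 0.0524. *Cdkn1c*, the p57 gene, had 5 counts in the core and 319 in the far lung, and stood at 0.262 CP10k in the margin, 0.384 in the far lung and 0.342 in control lung.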

How the data were processed

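Visium libraries of 2 fresh-frozen mouse lung sections from the same slide were analysed, 1 per condition. The authors deposited raw UMI counts for each spot covered by tissue, made with Space Ranger 1.3.1 on mm10 per the labels, without normalization. Levels were summed counts over summed totals × 10000 (CP10k). Ratios carried exact binomial intervals, levels exact Poisson intervals and the balance of the lists an exact conditional interval. Spots were clustered by k-means (5 clusters, 20 components, 2000 variable genes of log1p CP10k, cell cycle genes left out, seed 1). Neighbouring spots were 100 µm apart, and 858 barcodes occurred in both sections because barcodes mark array positions. Counts of genes past 2-fold used genes with at least 10 counts and a pseudocount of 0.5 counts. All 38 members were named. Of the wider lists the 4 highest and 3 lowest core over far ratios and all Ccnd, Cdkn and E2f genes were named, among genes with at least 50 counts, apart from a few that are not reported here. The members and lists were chosen with earlier results of these data known. Python 3.11.15, numpy 2.4.6, scipy 1.17.1, pandas 2.3.3 and scikit-learn 1.9.0 were used, and ratios were tested on simulated data. Median depth was 14940 (core), 10788 (far) and 9643.5 (control) counts per spot, so a gene at 1 CP10k gave about 1 count per spot and single genes were read from sums. Images were not used.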

Additional observations from a re-analysis of the deposited data

How the results depend on the processing

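Of 114 values under other settings, 67 stayed within the counting interval of the value reported, 45 moved outside it and 2 reversed. In the order replication and mitotic, the core over far ratios were 3.92 and 8.27 with *Scgb1a1*, haemoglobin, mitochondrial, surfactant and immunoglobulin genes left out of the library size, 5.07 and 10.4 with spots thinned to 5000 counts, 4.74 and 8.56 as means over spots, 4.42 and 9.16 in the smaller metastasis alone and 3.83 and 4.92 with the wider lists. The mitotic ratio was 10.9 in a core of 55 spots by score and 3.602 with *Cdc20*, *Hmgb2* and *Tubb4b* in its list, and the replication ratio was 6.08 without *Pcna*. The margin over far ratios were 3.12 and 6.13 with the core by score, 2.29 and 3.06 with 4 clusters, 2.81 and 4.35 with 6 clusters, 2.17 and 3.04 with the reduced library size, 3.52 and 4.68 at the larger metastasis, 1.91 and 2.86 at the smaller, 3.13 and 4.80 in spots that touch the core and 1.87 and 1.96 with the wider lists. The replication ratio of the margin was 2.88 without *Pcna*, and its mitotic ratio 1.61 with the 3 added genes.

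The far over control ratios were 0.834 and 0.820 with the core by score, 0.833 and 0.770 with the reduced library size and 0.827 and 0.760 with the wider lists. The mitotic ratio was 0.780 as a mean over spots and 0.838 with the 3 added genes. The balance of the core against the far lung was 0.553 as a mean over spots, 0.777 with the wider lists and, reversed, 1.57 with the 3 added genes, which brings in the abundant *Tubb4b*. That of the margin was 0.509 with the core by score, 0.954 with the wider lists and, reversed, 1.60 with the 3 added genes. That of the far lung against control lung was 0.941 as a mean over spots and 0.897 with the 3 added genes. Settings chosen after seeing the data left out the 10% of spots richest in club cell genes, or 20 spots detached from the tissue, and stayed within the intervals. With a minimum of 50 counts, 22.9% of all genes were over 2-fold higher in the core, 5.58% in the margin and 3.96% lower in the far lung. No paired analysis was possible because each condition had 1 section. Depth limits the single genes: *Kif20b* had 22, 1 and 9 counts in core, margin and far lung, and the smaller metastasis 148 mitotic counts in all. The regions rest on these counts and not on histology.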
